A study of Mus musculus with 142 samples.

Results

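The centromere-proximal ends of the mouse autosomes are the stretches of sequence next to the gap that stands for the centromere. They were taken as the 50 kb windows with a start from 3 Mb to under 8 Mb on each of the 19 autosomes (mm10), which gave 100 windows per autosome and 1900 of the 49264 windows of the table. A value in at least 50% of the clone profiles was found in 1701 of these windows, and levels refer to those. The cells were F121-9, a hybrid mESC line with one set of homologs from musculus and the other from castaneus, grown in 2i and LIF. E/L Repli-seq gave log2(E/L), the log2 of early over late S-phase reads of each homolog, in 66 libraries from 53 clones of 26 lines, and positive values are early. Every clone carried CRISPR-mediated deletions within the Dppa2/4 domain of chromosome 16, outside all 19 ends, and an unedited parental line was not analysed here. The deletion was on musculus alone in 43 clones and on castaneus alone in 2, and 8 clones had a deletion on each homolog.

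The 26 lines are named by what was deleted: the elements A, B, C and Z, their OSN sites (bound by Oct4, Sox2 and Nanog), their TSSs, or stretches to the left (CL) or right (CR) in C. Lines with 2 or more clones were A.B.COSN123, A.BOSN12.COSN123, A.COSN12, A.COSN123, AOSN.B.COSN123, AOSN.COSN12, AOSN.COSN123, ATSS.BTSS.CTSS, BOSN1.COSN123, BTSS.CTSS, CL20k, COSN1, COSN1.2.8k, COSN12, CR13.4k, CR14.6k, CTSS, Z.AOSN.COSN123 and Z.B.C. Lines with 1 clone were A.BOSN1.COSN123, A.BOSN12.BTSS.COSN123, AOSN.BOSN12.COSN123, BOSN12.COSN123, BTSS, COSN123 and CR11.8k. Profiles, each of 1 homolog in 1 library, had values for 73.8% to 93.8% of their windows (median 86.7%). In 10 clones a whole chromosome had no value on a homolog, most often castaneus chromosome 11 (6 clones), and such a clone does not enter the level of that chromosome, which needs both homologs. The mean of a clone's profiles, taken over the windows with a value, ranged from -0.12 to 0.23. The number of reads behind a value is unknown, and errors are SDs over clones.

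Replication timing follows large domains: gene-rich, open chromatin tends to replicate early in S phase, and gene-poor, compact chromatin at the nuclear periphery late. Mouse autosomes carry the centromere at the low-coordinate end. It is flanked by major satellite DNA, an AT-rich tandem repeat that is packed into heterochromatin marked by H3K9 methylation and HP1.

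In the assembly the sequenced part of an autosome begins at base 3000001, 3050001 or 3100001, and on chromosomes 9 and 11 it opens with sequence that resembles this satellite. That name rests on background knowledge, as no satellite reference was compared. The opening 240 bases of both are shown because they mark where the measurable sequence meets the centromere, and 232 of them on chromosome 9 and 64 on chromosome 11 are repeat-masked in the assembly. The capitals mark the longest run that they share, 18 bases.

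Chromosome 9, chr9:3000001-3000240, plus strand: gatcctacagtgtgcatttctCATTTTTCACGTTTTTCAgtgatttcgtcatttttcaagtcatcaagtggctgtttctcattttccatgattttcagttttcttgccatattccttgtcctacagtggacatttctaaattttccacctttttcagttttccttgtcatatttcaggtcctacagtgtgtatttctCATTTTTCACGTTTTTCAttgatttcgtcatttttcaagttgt

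Chromosome 11, chr11:3100001-3100240, plus strand: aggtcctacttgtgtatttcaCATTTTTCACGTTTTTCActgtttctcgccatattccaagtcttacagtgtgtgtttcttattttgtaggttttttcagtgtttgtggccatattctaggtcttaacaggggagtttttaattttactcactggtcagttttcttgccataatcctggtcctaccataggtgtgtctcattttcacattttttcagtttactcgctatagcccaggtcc

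All 12-base words of the chromosome 9 opening were counted on both strands. The opening 10000 bases held 4316 such words on chromosome 9 and 642 on chromosome 11, against 0 to 12 on the other 17 autosomes. Over the whole end chromosome 9 held 16350 and chromosome 11 held 932. Most of them lay in 1 window, chr9:3000001-3050000 with 15925 and chr11:3100001-3150000 with 646, and no other window of these ends held 100. The ends of the other 17 autosomes held from 196 (chromosome 19) to 703 (chromosome 14) such words, and their windows were not counted singly. In the chromosome 9 window, 35.8% of the musculus and 32.1% of the castaneus profiles had a value, so that it fell below the 50% minimum; its level was -0.53 ± 0.46 (SD, n = 13 clones). The next window, chr9:3050001-3100000, had a value in every profile and a level of -0.61 ± 0.29 (SD, n = 53). The chromosome 11 window had a level of -0.39 ± 0.29 (SD, n = 47).

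The opening 120 bases of the earliest end (chromosome 19), the latest end (chromosome 3) and the end with the fewest values (chromosome 14) are given for comparison, and none of them holds the shared run.

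Chromosome 19, chr19:3000001-3000120, plus strand: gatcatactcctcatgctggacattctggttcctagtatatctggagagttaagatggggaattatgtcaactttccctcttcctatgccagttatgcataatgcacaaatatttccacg

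Chromosome 3, chr3:3000001-3000120, plus strand: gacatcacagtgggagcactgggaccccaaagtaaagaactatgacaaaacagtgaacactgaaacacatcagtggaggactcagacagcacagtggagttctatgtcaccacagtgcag

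Chromosome 14, chr14:3000001-3000120, plus strand: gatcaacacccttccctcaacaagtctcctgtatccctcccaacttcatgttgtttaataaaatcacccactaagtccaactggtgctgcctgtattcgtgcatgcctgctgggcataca

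The end of chromosome 14 was almost unmeasured. Of its 100 windows, 83 had no value in any of the 106 profiles (53 clones, 2 homologs), 10 fell below the 50% minimum and 7 were used, all of them in chr14:7650001-8000000. Of 103 protein-coding genes that start there, 98 have provisional Gm names and 4 lie in windows used. Repeat-masked sequence made up 60.2% of this end, the highest share among the 19, and none of it is a gap. Its level of 1.04 ± 0.11 (SD, n = 51 clones) therefore describes the last 0.35 Mb, which rose from 0.53 ± 0.23 to 1.29 ± 0.12, and it is kept apart below.

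Over all 19 ends a value was present in 86.9% ± 3.78 of windows, against 90.04% ± 5.58 of the windows from 8 Mb onward (SD, n = 53 clones). The difference was -3.16 percentage points ± 2.18 (SD; higher at the ends in 5 of 53 clones; sign-flip permutation test, p = 1e-05, the smallest that these resamples give). Without chromosome 14 it turned to 1.00 ± 1.93 (higher in 33 of 53 clones, permutation p = 0.00043). Over all ends 86.4% ± 4.15 of windows had a value on musculus and 87.4% ± 3.53 on castaneus. The homologs differed most at chromosome 8, with 86.5% on musculus and 94.5% on castaneus, and at chromosome 5, with 91.0% and 94.4%; the part of this in the allele differences below was not tested.

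Apart from chromosome 14, the largest stretch without enough values was chr7:7300001-8000000, 14 windows that hold Clcn4 and the vomeronasal receptor genes Vmn2r30 to Vmn2r36. On chromosome 3, 19 windows within chr3:6200001-7350000 were not used. On chromosome 16 the opening 9 windows were not used, and part of them is a gap in the assembly. On chromosome 4 the 6 opening windows, with the pheromone receptor genes Vmn1r2 and Vmn1r3, and the 5 windows of chr4:6100001-6350000, with Cyp7a1, the rate-limiting enzyme of bile acid synthesis, were not used. The ends of 13 autosomes had a value in over 90% of windows.

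**Figure D1:**
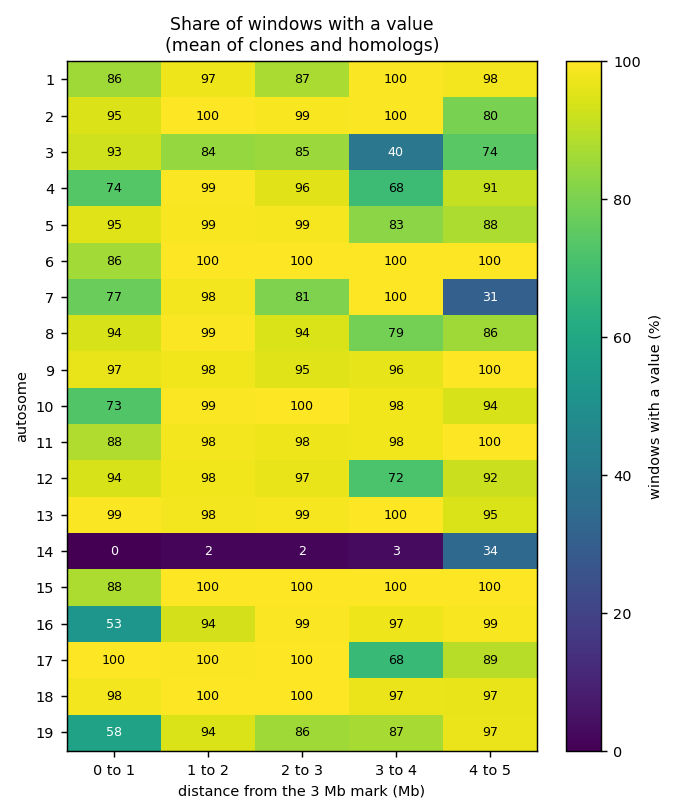
Percent of 50 kb windows with a value (colour and printed number, mean of 53 clones and both homologs) for each autosome (rows) and each Mb from the 3 Mb mark (columns). The chromosome 14 row stays at 34% or less, and the next lowest cells are the last Mb on chromosome 7 (31%) and the fourth Mb on chromosome 3 (40%).

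The ends did not share a single timing: their levels ran from -0.90 to 1.16. The latest was chromosome 3, where the lowest, median and highest clone lay at -1.29, -0.89 and -0.41, with a mean of -0.90 ± 0.17 (SD, n = 53). Chromosome 4 followed with -0.91, -0.63 and -0.38 (mean -0.65 ± 0.12), and chromosome 13 with -0.88, -0.47 and -0.18 (mean -0.48 ± 0.14, n = 51). No clone was above 0 at any of these ends.

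The earliest end was chromosome 19, with 0.79, 1.21 and 1.32 in the lowest, median and highest clone and a mean of 1.16 ± 0.13 (n = 53). Chromosome 11 followed with 0.74, 1.01 and 1.15 (mean 1.00 ± 0.08, n = 47) and chromosome 7 with 0.55, 0.77 and 0.88 (mean 0.76 ± 0.06, n = 53). Every clone was above 0 at these ends, so they did not overlap the latest 3.

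Between them lay chromosomes 1 (-0.48 ± 0.11), 5 (-0.46 ± 0.15), 9 (-0.44 ± 0.10), 8 (-0.29 ± 0.25), 16 (-0.07 ± 0.10), 15 (-0.03 ± 0.07), 12 (0.03 ± 0.20), 6 (0.06 ± 0.13), 17 (0.06 ± 0.11), 10 (0.18 ± 0.08), 2 (0.22 ± 0.12) and 18 (0.25 ± 0.08; mean ± SD over 52 or 53 clones). Of the 18 neighbours in this order, 10 differed (sign-flip permutation test over clones, Benjamini-Hochberg adjusted over the 18 pairs). The order was taken from the same levels that were tested. The p-values measure the spread between clones of the same cell line and not that between autosomes. Chromosomes 13, 1, 5 and 9 did not differ from their neighbours among them, nor did 15, 12, 6 and 17, 2 and 18, or 11 and 14. On chromosomes 8 and 12 the fourth Mb was late (-1.35 and -1.13), with a value in 79.2% and 71.8% of windows. A clone without those windows has a higher level, so the sign and rank of these 2 ends are uncertain. At chromosome 12 the median clone was at -0.02, and 21 of 53 clones were above 0. The distal ends of the same size covered a similar range, from -0.92 (chromosome 18) to 1.1955 (chromosome 11).

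**Figure D2:**
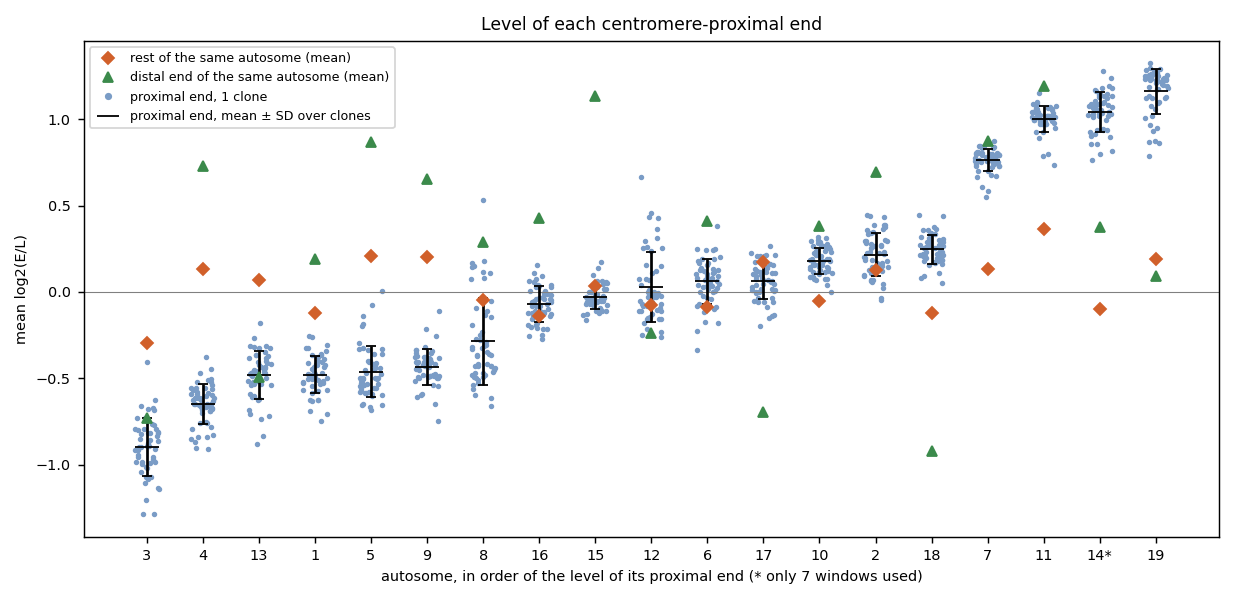
Mean log2(E/L) of each centromere-proximal end (vertical axis) by autosome in order of level (horizontal axis). Points are clones, black bars mean ± SD over clones, diamonds the rest of the same autosome and triangles its distal end. The ends run from -0.90 (chromosome 3) to 1.16 (chromosome 19), while the diamonds stay between -0.30 and 0.36.

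Against the rest of their own autosomes, 10 ends were earlier and 9 later. Apart from chromosome 14, the largest differences were at chromosome 19 (0.97 ± 0.13 above the rest, in 53 of 53 clones) and chromosome 4 (-0.78 ± 0.12, below it in every clone). The mean over 19 autosomes was 0.045 ± 0.075 at the ends and 0.030 ± 0.114 in the rest, a difference of 0.014 ± 0.066 (SD, n = 53 clones; higher in 33; permutation p = 0.12). Without chromosome 14 it was -0.046 ± 0.061 (higher in 14 of 53 clones, permutation p = 1e-05), and it was also below 0 with the interval set to 4 to 8 Mb (-0.046) or 3 to 13 Mb (-0.045). No direction relative to the rest of the autosomes can therefore be given.

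The distal ends, the last 100 windows of each autosome, replicated earlier on average. Their mean was 0.272 ± 0.070 against 0.045 ± 0.075 at the proximal ends, a difference of -0.227 ± 0.067 (SD, n = 53; negative in every clone; permutation p = 1e-05), and -0.275 ± 0.067 without chromosome 14. The p-value measures the spread between clones of the same cell line and not the spread between autosomes. By autosome the proximal end was the later in 13 and the earlier in 6. The differences reached -1.38 ± 0.18 on chromosome 4, -1.33 ± 0.14 on chromosome 5 and -1.17 ± 0.12 on chromosome 15, each in every clone. Apart from chromosome 14, they were of the opposite sign in every clone on chromosomes 18 (1.17 ± 0.26), 19 (1.07 ± 0.21) and 17 (0.76 ± 0.19), and on chromosome 13 the difference was 0.01 ± 0.18.

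Averaged over the autosomes, timing became later with distance from the centromere across these 5 Mb. The slope was negative at 12 ends and positive at 7, with chromosome 14 among the latter. Over the 18 autosomes other than chromosome 14, log2(E/L) averaged 0.25 ± 0.06 in the opening Mb, 0.21 ± 0.05 in the next, then -0.05 ± 0.06, -0.19 ± 0.08 and -0.34 ± 0.08 (SD over 53 clones). It was not a steady decline beyond that: the Mb from 8 Mb was at 0.04 ± 0.05 and the next at -0.16 ± 0.07 (17 autosomes). The mean slope was -0.159 ± 0.016 per Mb (SD, n = 53; negative in every clone; permutation p = 1e-05). With chromosome 14, whose 7 windows gave a slope of 2.18 ± 0.70 per Mb, it was -0.039 ± 0.045 (negative in 44 of 53 clones; permutation p = 1e-05). These p-values measure the spread between clones and not that between autosomes.

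**Figure D3:**
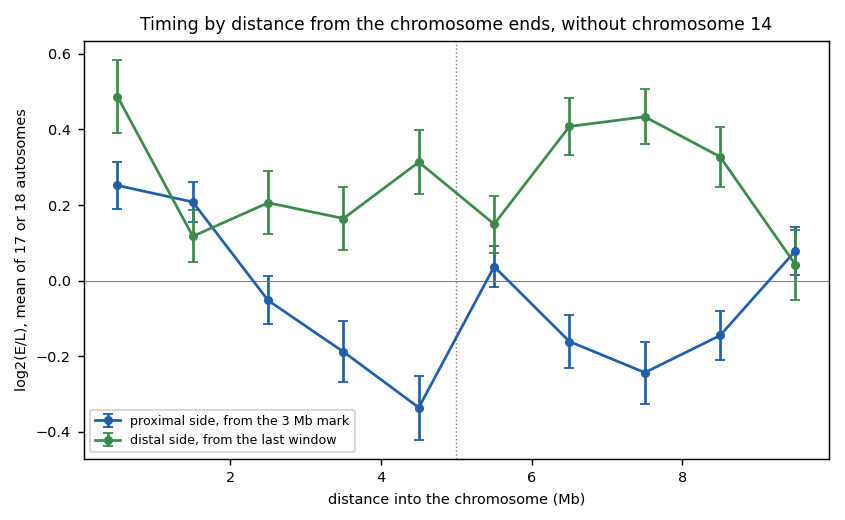
Mean log2(E/L) over the autosomes other than chromosome 14 (vertical axis) by distance in Mb from the 3 Mb mark (proximal side) or from the last window (distal side). Points are 1 Mb means and bars the SD over 53 clones. The proximal side falls from 0.25 to -0.34 up to the dotted line at 5 Mb, the limit of the ends. The distal side is above 0 over the 10 Mb drawn, and its means from 10 to 13 Mb, which are not drawn, were negative.

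The slope differed between ends. Among all 462 regions of 5 Mb along the autosomes, 36.6% became later with distance by limma at an adjusted p below 0.05 and a slope of at least 0.1 per Mb, and 31.6% became earlier. With no minimum slope, 96.5% of all regions and all 18 ends passed. With the minimum, 8 of the 18 ends (44.4%) became later and 2 (11.1%) earlier. The steepest were chromosome 8 (-0.67 ± 0.04 per Mb, from -0.75 to -0.58 among clones), chromosome 12 (-0.66 ± 0.06, from -0.78 to -0.51) and chromosome 16 (-0.59 ± 0.07, from -0.73 to -0.35). Each of the 3 is an early domain next to a late one: on chromosome 8 the 1 Mb means were 0.98, 0.63, -1.07, -1.35 and -1.30, on chromosome 12 they were 1.08, 1.25, -0.47, -1.13 and -1.18, and on chromosome 16 they were 0.84, 1.31, -0.15, -1.21 and -0.59. Chromosomes 5 (-0.47 ± 0.04), 2 (-0.27 ± 0.09), 7 (-0.25 ± 0.05), 11 (-0.21 ± 0.04) and 4 (-0.18 ± 0.04) also became later. Only chromosomes 15 (0.29 ± 0.03) and 3 (0.21 ± 0.04) passed in the other direction.

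**Figure D4:**
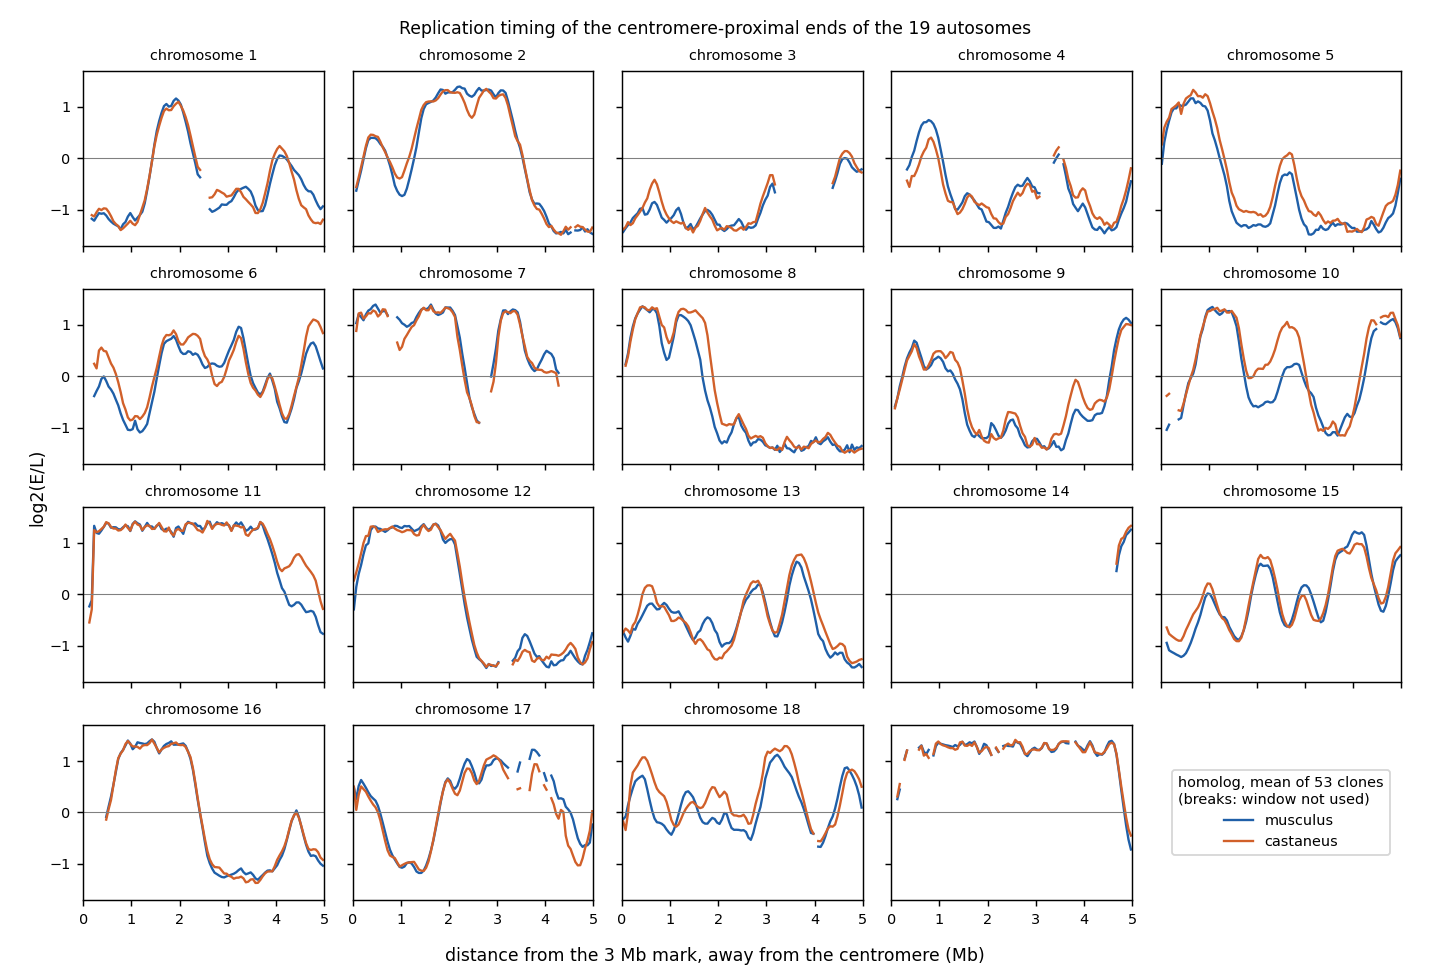
Mean log2(E/L) of the musculus (blue) and castaneus (orange) homologs over 53 clones (vertical axis) by distance from the 3 Mb mark in Mb (horizontal axis), 1 panel per autosome, with breaks where a window was not used. Chromosomes 8, 12 and 16 fall from above 1 to below -1, chromosomes 11 and 19 stay early for most of the 5 Mb, and the homologs part on chromosomes 8, 10, 11 and 18.

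Base composition and gene content varied along with the level. The ends together had 41.7% GC and 9.59 protein-coding gene starts per sequenced Mb, against 41.9% and 8.65 in the rest, and 39.8% repeat-masked sequence against 33.2%. These values include chromosome 14, which holds 103 of the 904 gene starts, 98 of them with provisional Gm names and only 4 in windows used. Chromosome 19, the earliest end, had the highest GC content (47.7%) and the most genes (185), and chromosome 3, the latest, had the lowest GC content (38.1%) and the fewest genes (8). Across the 18 ends with at least 50 windows used, GC content and level had a Pearson r of 0.89 and a Spearman rho of 0.85, and gene number and level 0.81 and 0.65. The points share the same libraries, and regions rich in genes are also rich in GC. Across single windows r was 0.71 in the ends (n = 1701) and 0.72 elsewhere (n = 43526). Windows with an early mean made up 47.8% of the windows of the ends and 48.4% of the others.

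Most genes of the ends lay in early windows. Of 904 protein-coding genes that start there, 764 lay in windows used, 653 of these with a mean above 0, and elsewhere 14932 of 18646 did. The gene nearest the centromere was early on chromosome 8 (Insr, the insulin receptor, 1.11 ± 0.13), chromosome 12 (Rab10, a small GTPase of vesicle transport, 1.07 ± 0.21), chromosome 5 (Cdk6, a kinase of the G1 phase, 1.00 ± 0.20), chromosome 19 (Mrpl21, a mitochondrial ribosomal protein, 1.02 ± 0.31, n = 21) and chromosome 7 (AU018091, 1.19 ± 0.24). It was late on chromosome 1 (Xkr4, -1.30 ± 0.13), chromosome 15 (Selenop, the selenium carrier of plasma, -0.99 ± 0.18), chromosome 3 (Hnf4g, a nuclear receptor, -0.93 ± 0.22) and chromosome 2 (Fam171a1, -0.41 ± 0.19). On chromosomes 11 (Sfi1, a centrosome protein, -0.20 ± 0.22) and 13 (Gdi2, a regulator of Rab GTPases, -0.02 ± 0.26) it was near 0 or below. It was above 0 on chromosomes 17 (Scaf8, 0.43 ± 0.23), 16 (Olfr161, an olfactory receptor, 0.28 ± 0.17), 6 (Samd9l, an interferon-induced gene, 0.25 ± 0.29) and 18 (Vmn1r238, 0.07 ± 0.21; SD over 45 to 53 clones where not given). The windows of Vmn1r2 (chromosome 4), Gm10722 (9), H60c (10) and Gm2888 (14) were not used.

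Promoters of 11 of these 19 genes were found in the RefSeq table (GRCm38.p6, 300 bases each). Those of the 2 genes among the 11 that lay in the latest and in the earliest window used are shown, with each CG in capitals, since the levels varied with base composition. That of Selenop holds 4 CG and that of Rab10 43. CG occurs in 94.6% of all 32851 promoters, with a median of 7, and 68.6% hold 4 or more and 2.61% hold 43 or more. H60c (5 CG) and Gm2888 (2 CG) lay in windows not used and have no level. Among the others of the 11, CG number and window level did not run in parallel throughout. Scaf8 has 47 CG at a level of 0.43, Gdi2 24 at -0.02, and Olfr161 and Samd9l 1 each at 0.28 and 0.25. Cdk6 has 27 at 1.00, Mrpl21 21 at 1.02 and Fam171a1 2 at -0.41. The capitals are a description of these letters.

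Selenop, chr15:3270517-3270816, plus strand: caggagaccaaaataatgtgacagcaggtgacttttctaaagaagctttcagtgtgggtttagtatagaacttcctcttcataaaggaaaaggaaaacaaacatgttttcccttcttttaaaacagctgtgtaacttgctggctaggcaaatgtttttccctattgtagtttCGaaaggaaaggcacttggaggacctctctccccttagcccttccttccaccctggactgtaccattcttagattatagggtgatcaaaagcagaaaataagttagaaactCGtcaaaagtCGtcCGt

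Rab10, chr12:3309920-3310219, minus strand: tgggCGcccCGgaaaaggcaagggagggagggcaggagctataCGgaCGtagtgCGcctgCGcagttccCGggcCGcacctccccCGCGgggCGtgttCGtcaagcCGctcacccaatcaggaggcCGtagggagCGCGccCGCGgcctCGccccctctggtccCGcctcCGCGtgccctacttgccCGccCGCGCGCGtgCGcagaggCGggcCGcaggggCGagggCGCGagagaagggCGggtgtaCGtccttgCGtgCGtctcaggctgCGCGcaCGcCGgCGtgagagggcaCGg

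Gene families were counted by symbol prefix. The ends held 10 olfactory receptor genes, 8 on chromosome 7 (Olfr1344, Olfr1346 and Olfr5 among them) and 2 on chromosome 16, and all 10 lay in windows above 0 (median 1.03), whereas 252 of 912 did elsewhere (median -0.61). Of 23 vomeronasal receptor genes, 12 lay in windows used, 6 above and 6 below 0, and elsewhere 51 of 212 were above 0. Of 23 Zfp genes 21 were above 0, 16 of them on chromosome 7, a share close to that elsewhere (300 of 321). The lowest was Zfp804b on chromosome 5 (-1.27). The developmental transcription factor prefixes gave Sox17, an endoderm factor (0.24), Tbx10 (1.37) and Gatad1 (1.24), the last a GATA zinc finger domain protein and not a lineage factor. No defensin gene starts in the ends. Neighbouring genes share windows and smoothing, so these counts were not tested.

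The homologs differed at most ends by a small amount, and castaneus was the earlier more often. The mean difference musculus minus castaneus was below 0 at 15 ends, chromosome 14 among them, and above 0 at 4. The sign alone was not counted over all regions. At an adjusted p below 0.05 and at least 0.1, limma called 7 of 18 ends earlier on castaneus and 1 on musculus. Of all 5 Mb regions, 17.5% and 10.4% were called. The mean difference was -0.25 ± 0.07 at chromosome 10 (SD, n = 53), where the lowest, median and highest clone lay at -0.41, -0.23 and -0.15. It was -0.23 ± 0.07 at chromosome 5 (-0.44, -0.22 and -0.07) and -0.22 ± 0.07 at chromosome 18 (-0.39, -0.23 and -0.06). At chromosomes 10, 5, 18, 8 (-0.19 ± 0.06) and 9 (-0.11 ± 0.07) castaneus was the earlier in all 53 clones. On the other side, musculus was the earlier at chromosome 17 (0.13 ± 0.06, in 51 of 53 clones) and chromosome 7 (0.10 ± 0.05, in 49 of 53).

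By limma 15 of the 18 ends (83.3%) had an adjusted p below 0.05, against 87.7% of all 462 regions of 5 Mb. The ends of chromosomes 2, 16 and 19 did not, with -0.01 ± 0.05, -0.01 ± 0.04 and -0.01 ± 0.03. None of the 18 reached a difference of 0.25, a size that 1.52% of all regions passed with castaneus earlier and 1.3% with musculus earlier. The mean size of the difference per window, regardless of sign, was 0.238 ± 0.028 at the ends and 0.226 ± 0.026 in the rest, 0.012 ± 0.011 more (SD; 43 of 53 clones; permutation p = 1e-05). With the median over autosomes it was 0.0004 ± 0.015 (permutation p = 0.86), so it rests on some of the ends.

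**Figure D5:**
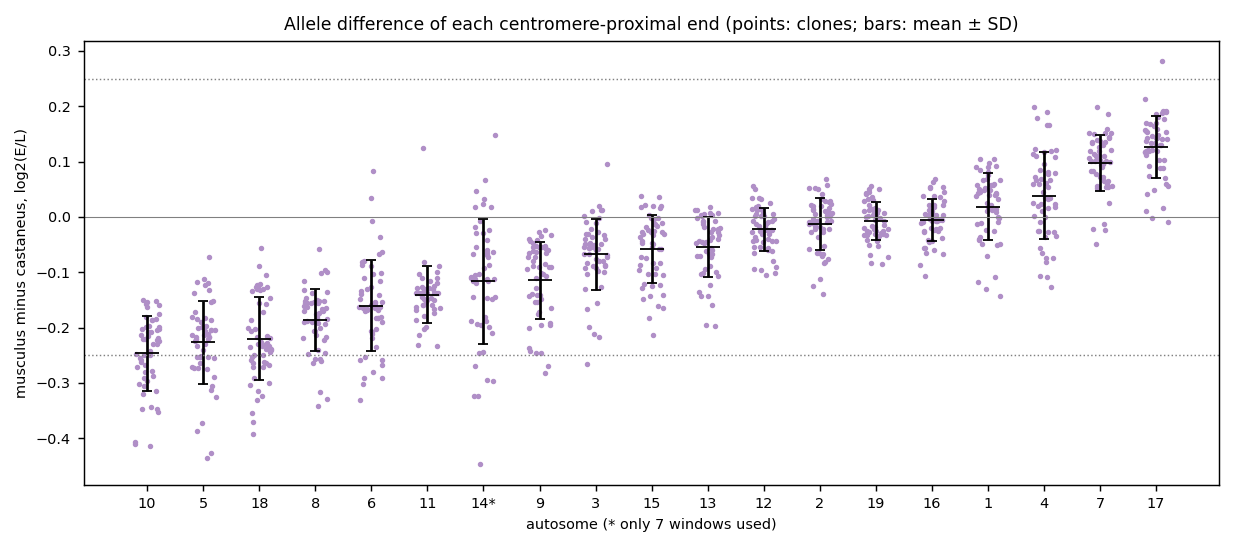
Difference musculus minus castaneus in log2(E/L) of each centromere-proximal end (vertical axis) by autosome (horizontal axis). Points are clones, bars mean ± SD over clones and dotted lines the size of 0.25. Chromosomes 10, 5, 18, 8 and 9 lie below 0 in every clone, and chromosome 17 is the highest at 0.13.

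Within the ends, differences of at least 0.5 lay in blocks of up to 1000 kb. Across the table, 3.06% of 44259 windows were earlier on castaneus by limma at an adjusted p below 0.05 and at least 0.5, and 2.46% on musculus. In the ends 81 of 1672 windows tested (4.84%) were earlier on castaneus and 21 (1.26%) on musculus. Neighbouring windows share the smoothing. The 81 formed 13 blocks of 50 to 1000 kb at 7 ends, and the 21 formed 6 blocks of 50 to 300 kb at 5 other ends.

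The longest block was chr10:4900001-5900000, 20 windows with a difference of -0.78 ± 0.10 (SD; from -1.05 to -0.62 over 53 clones). It overlaps 8 protein-coding genes, among them Esr1 (estrogen receptor alpha), Syne1 (a nuclear envelope protein), Vip (a neuropeptide) and Fbxo5 (an inhibitor of the anaphase-promoting complex). The musculus homolog averaged -0.22 and castaneus 0.56. In its largest window, chr10:5400001-5450000 within Syne1, the levels were -0.31 ± 0.19 on musculus and 0.69 ± 0.16 on castaneus, and no clone was closer than -0.65.

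The largest difference lay on chromosome 8, in the block chr8:4500001-5050000 with Cers4 (a ceramide synthase), Zfp958 and Shcbp1 (a cytokinesis protein). It was -0.88 ± 0.12 over the 11 windows (from -1.12 to -0.56, n = 53). In chr8:4700001-4750000, which holds part of Shcbp1, musculus was at -0.28 ± 0.11 and castaneus at 1.04 ± 0.19, a difference of -1.31 ± 0.20. All 53 clones lay between -1.96 and -0.92 there, so that castaneus was the earlier in each. Over the whole block musculus averaged -0.35 and castaneus 0.50, where the end passes from early to late.

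On chromosome 11 the 15 windows of chr11:7200001-7950000, with the insulin-like growth factor binding protein genes Igfbp1 and Igfbp3, differed by -0.79 ± 0.14 (n = 47), with musculus at -0.31 and castaneus at 0.49. On chromosome 18 there were blocks of 9 windows (chr18:3500001-3950000, -0.62 ± 0.11), which holds Bambi, an inhibitor of TGF-beta signalling, and of 6 windows (chr18:4750001-5050000, -0.57 ± 0.20), which overlaps Svil. Chromosome 6 had 4 blocks, the one nearest the distal side being chr6:7800001-8000000 (-0.62 ± 0.15) with C1galt1 and Col28a1. The end of chromosome 5 had no window past 0.5, although its mean difference was among the largest: its widest window, chr5:5950001-6000000, was at -0.48 ± 0.27 (n = 48).

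The 6 blocks earlier on musculus were at most 300 kb long. They were chr17:7400001-7700000 (0.64 ± 0.21), chr4:3500001-3700000 (0.59 ± 0.23), chr13:4700001-5000000 (0.58 ± 0.20), chr7:3900001-4000000 (0.55 ± 0.22) and, on chromosome 1, chr1:7700001-7800000 (0.54 ± 0.21) and a single window. The chromosome 4 block overlaps Lyn, a Src family kinase, Tgs1 and Tmem68, and the chromosome 7 block overlaps Lilra6, an immune receptor gene. Those on chromosomes 17, 13 and 1 overlap no protein-coding gene.

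Clones varied at the ends as they did elsewhere. The mean absolute deviation of a clone from the other clones was 0.162 ± 0.040 at the ends and 0.162 ± 0.039 in the rest (permutation p = 0.98). With profiles centred on their own mean the deviation was not lower, at 0.171 at the ends and 0.167 in the rest. The ends were then above the rest by 0.0037 ± 0.0120 (permutation p = 0.0272). With the median over autosomes, without centring, the difference was -0.0047 (permutation p = 0.00267). The deviation was largest at chromosomes 3 (0.183), 13 (0.177) and 6 (0.177) and smallest at chromosome 2 (0.138). Among windows used, the widest was chr1:3000001-3050000 (SD 0.403). At the 3 ends of largest deviation the widest were chr3:7050001-7100000 (SD 0.341, no protein-coding gene), chr13:3000001-3050000 (SD 0.316, none) and chr6:5200001-5250000 (SD 0.334, with Pon3, a paraoxonase). Missing windows also moved the level of an end: the SD between clones of 0.253 at chromosome 8 and 0.204 at chromosome 12 was 0.083 and 0.074 when each window was set against its own mean over clones.

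Across the 19 lines with at least 2 clones, differences between lines were about as frequent at the ends as elsewhere. By limma's F test over the 46 clones of the 19 lines with at least 2 clones, 91% of 411 regions of 5 Mb had an adjusted p below 0.05, and so did 15 of the 17 ends tested (88.2%). Chromosomes 9 (adjusted p = 0.0877) and 15 (adjusted p = 0.112) did not, and chromosomes 11 and 14 could not be fitted, as lines lost all their clones or too few windows were used. With profiles centred on their own mean 14 ends were called: chromosome 15 passed (adjusted p = 0.0053), while chromosomes 2 (adjusted p = 0.21), 10 (adjusted p = 0.0501) and 9 (adjusted p = 0.053) did not. The line means lay farthest apart at chromosome 8, from -0.62 (ATSS.BTSS.CTSS, 3 clones) to 0.26 (BTSS.CTSS, 3 clones), with an SD within lines of 0.15. With each window set against its own mean the range there was 0.33, and the widest range was then at chromosome 6 (0.60). At chromosome 6 the line means ran from -0.28 (CL20k, 2 clones) to 0.31 (CR13.4k, 2 clones), with an SD within lines of 0.09. A smaller fit, of 24 libraries of 5 lines with a replicate number, called 6 of 17 ends, against 47.2% of all regions. The labels name no day of culture or sequencing run, so line and batch cannot be told apart.

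The chromosome 16 end lies in cis to the deletions. Its difference musculus minus castaneus was -0.003 ± 0.037 in 42 clones with the deletion on musculus (from -0.11 to 0.07) and 0.003 and 0.055 in the 2 clones with the deletion on castaneus, which lay within that range. The difference of the means was -0.032 (exact two-sided permutation test over 946 assignments, p = 0.237; the smallest p possible is 0.00106).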

How the data were processed

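Cells of F121-9 clones were labelled with BrdU and sorted into early and late S phase, and the labelled DNA of both fractions was sequenced. The authors trimmed the reads with Trim Galore and cutadapt, aligned them with bowtie2 to an N-masked mm10 genome, split them by homolog (SNPsplit; musculus strain 129 or castaneus), took out duplicates (Samtools) and counted reads per 50 kb window (bedtools). The deposited values are log2 ratios of early to late counts. The authors scaled them, applied quantile normalization and smoothed them by loess with a span of 300 kb, so neighbouring windows share reads. Versions are not given in the sources used here. The study requested a minimum number of reads per library, but the table holds ratios only, so the depth behind a value is unknown.

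All 138 columns were used, and none was left over. They stand for 66 libraries, out of 142 samples in the labels (each fraction counted separately). The 5 libraries without a column were not analysed here. Repeat runs of 3 clones were averaged, then libraries of a clone. Correlations between columns were at most 0.988, so no library was taken as a duplicate. Clones were the units, with all lines together. They are not all independent: the paper made COSN12 and COSN123 in COSN1 cells and introduced several further deletions into the COSN123 cell line. The p-values do not account for this shared descent. Where nothing says that libraries of a clone are separate experiments, p-values measure the spread between these clones.

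Windows with a value in at least 50% of clone profiles were used. Single values per clone were tested with two-sided sign-flip permutation tests (100000 resamples). The 6 single-value tests were not adjusted for each other. Slopes, allele differences and lines were fitted with limma over all 5 Mb regions with at least 50 windows (25 per clone) or all windows, with Benjamini-Hochberg adjustment over all of them. Correlations carry no p. The fits were tested on simulated data. Genes come from GENCODE vM21 and sequence from GRCm38, whose chromosome lengths equal those of the table. The named genes are, by rule, the protein-coding gene start nearest the centromere of each end, families by symbol prefix, the 3 ends at either extreme, and the windows of the largest allele difference or spread. The other blocks and runs of windows were chosen after their values were seen. Members and lists were chosen with earlier results of these data known. Alternatives covered units, filters, the interval, the median over autosomes, minimum sizes and single clones left out. Leaving out chromosome 14, centring the profiles and setting windows against their own mean were added after seeing the data. Same-numbered libraries of 5 lines were also fitted with the number as a block. Tools were Python 3.11.15, numpy 2.4.6, pandas 2.3.3, matplotlib 3.10.9, R 4.3.3 and limma 3.58.1.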

Additional observations from a re-analysis of the deposited data

Results flagged for a closer look

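In lines with 4 or 5 clones, a clone was set apart where its gap to the nearest other clone took most of the range of its line (Dixon's 95% limit). Of 72 groups tested (level and allele difference at 18 ends in 2 lines), 7 held such a clone, where chance gives about 1 in 20, and ends of 1 clone share its libraries. Clone 3C.4 of AOSN.B.COSN123 accounted for 4 of them. Its difference musculus minus castaneus was -0.0960 at the chromosome 12 end (the other 4 clones from -0.0443 to -0.0237), -0.213 at chromosome 15 (-0.129 to -0.106), -0.0808 at chromosome 4 (0.0169 to 0.0459) and -0.247 at chromosome 9 (-0.103 to -0.0608). This clone also had no value on castaneus chromosome 13. In A.COSN123, clone B7 had a level of -0.702 at the chromosome 4 end (the other 3 clones from -0.603 to -0.588), clone D8 an allele difference of 0.00243 there (0.0604 to 0.0673) and clone H10 one of 0.0293 at the chromosome 16 end (-0.00756 to -0.00380).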

How the results depend on the processing

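The later mean timing of the proximal than the distal ends and the mean decline with distance kept their direction under every alternative run. They also kept their side of the threshold, with -0.301 to -0.223 for the former and -0.159 to -0.027 per Mb for the latter. The level against the rest of the autosomes did not: it was -0.0286 with windows present in at least 80% of profiles, -0.0461 with the interval 4 to 8 Mb, -0.0445 with 3 to 13 Mb and -0.0464 without chromosome 14, but 0.0403 (permutation p = 0.00115) with line means as units; the cause was not tested. The share of windows with a value turned to 1.00 without chromosome 14. The size of the allele difference fell to 0.000371 with the median over autosomes. The difference in spread between clones, -3.3e-05, took the other sign with single libraries (0.000513), windows in at least 80% of profiles (0.000572), no filter (0.000266), chromosome 14 left out (0.000936) and centred profiles (0.00371), and was -0.00474 with the median over autosomes.

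A smaller minimum difference, by construction, gave more calls: at 0.25, 304 windows of the ends were earlier on castaneus and 103 on musculus (10.7% and 8.83% of all windows), and at 0.1, 7 ends were earlier on castaneus and 1 on musculus (17.5% and 10.4% of all regions). Leaving out each clone in turn gave 0.0126 to 0.0175 for the level against the rest, -0.230 to -0.224 for that against the distal ends, -0.0419 to -0.0366 per Mb for the slope, -3.26 to -3.11 percentage points for the share, 0.0117 to 0.0125 for the size of the allele difference, -0.000977 to 0.000411 for the spread, 14 to 15 ends for the lines and -0.0581 to -0.00619 for the chromosome 16 end.

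Among 24 libraries of 5 lines with a replicate number in the labels, 6 of 17 ends were called for lines with the replicate block and 6 without it (222 and 207 of all regions). Deviations of same-numbered libraries correlated from -0.121 to 0.744 over 10 pairs of lines, and 8 of the 10 were over 0.1. Pairing was taken only where every pair exceeds 0.1, so the numbers were not taken to pair the samples. The number of reads is unknown, and values on chromosome 14 before base 7650001 are too few for any statement.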
